A study of Homo sapiens with 6 samples.

Results

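Most noncoding RNAs of the cell's housekeeping machines end without a poly(A) tail, and they are read here in RNA-seq libraries of HK-2 cells. The study's methods describe poly(A) capture, while the labels also name a total RNA kit. The set was chosen by gene type and by measured counts: rows of the count table typed as snRNA, snoRNA, scaRNA, misc_RNA, vault_RNA or ribozyme, or with the symbol RMRP or RPPH1, and with at least 30 counts over the 6 libraries. This gave 48 RNAs of the 31831 genes in the table, out of 602 rows of these types at any count. The total count over the libraries chose the members, so that total is a description and no test is made on it. Of the 48 RNAs, 28 also reached 30 counts without HG-OE replicate 3, and 20 reached it only with that library. For these 20, a high level in HG-OE replicate 3 is part of how they were chosen.

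These RNAs work inside RNA-protein particles. 7SL is the scaffold of the signal recognition particle, which brings ribosomes with secretory proteins to the endoplasmic reticulum, and 7SK holds the elongation kinase P-TEFb in an inactive store. RPPH1 is the RNA of RNase P, which trims transfer RNA precursors, and RMRP is the RNA of the related RNase MRP, which cuts ribosomal RNA precursors. The small nuclear RNAs build the spliceosome, and U1 is the one that reads the 5′ splice site. C/D box snoRNAs guide ribose methylation, H/ACA box snoRNAs guide pseudouridylation, and scaRNAs guide the same changes on snRNAs in Cajal bodies. Y RNAs bind the Ro60 protein, and vault RNAs are found in part in the vault particle. Some of these RNAs are transcribed by RNA polymerase III or from their own RNA polymerase II promoters, while most snoRNAs are cut out of the introns of a host gene.

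HK-2 cells are an established line from the epithelium of the human renal proximal tubule. All cells were kept in 30 mM glucose for 72 h. HG-NC cells carried the control lentivirus and HG-OE cells a lentivirus that overexpresses hnRNP-F, an RNA-binding protein that regulates splicing, with 3 libraries in each group. The study calls the libraries of a group biological replicates but does not say whether they came from separate infections, and p-values measure the spread between these libraries. Totals ran from 25507595 to 29444841 counts per library, and a count of 0 allows up to 3 counts, or 0.102 to 0.118 CPM (counts scaled to the same library total by TMM), counting error only. HNRNPF itself, the overexpressed gene, was at 304, 318 and 311 CPM in the controls, and HG-OE replicates 1, 2 and 3 had 430, 451 and 422 CPM. HG-OE replicate 3 stood apart from the other HG-OE libraries: chi-square per gene was 11.5 and 11.1 against replicates 1 and 2, and 2.71 between those. It also had a count in 26423 genes, against 24342 to 25012 in the other 5. Every level is therefore given for HG-NC, for HG-OE replicates 1 and 2, and for HG-OE replicate 3. HG-OE replicate 3 is 1 library, and its difference from replicates 1 and 2 is described without a test.

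The sequences below are some of those the levels turn on, read from GRCh38 on the strand of each gene in GENCODE release 44. The RNVU1 loci on chromosome 1 are variant copies of U1. Capitals mark ACTTACCTG, the stretch by which U1 pairs with the 5′ splice site. They lie at chr1:144560666-144560829, chr1:145465617-145465780 and chr1:148038753-148038916, all on the minus strand.
RNVU1-28: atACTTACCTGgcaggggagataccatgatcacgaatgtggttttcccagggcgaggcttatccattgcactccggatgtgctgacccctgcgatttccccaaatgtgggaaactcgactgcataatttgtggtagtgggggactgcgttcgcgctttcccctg
RNVU1-31: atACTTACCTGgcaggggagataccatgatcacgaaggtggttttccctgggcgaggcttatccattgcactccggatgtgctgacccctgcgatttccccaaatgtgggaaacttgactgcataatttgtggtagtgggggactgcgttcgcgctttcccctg
RNVU1-7: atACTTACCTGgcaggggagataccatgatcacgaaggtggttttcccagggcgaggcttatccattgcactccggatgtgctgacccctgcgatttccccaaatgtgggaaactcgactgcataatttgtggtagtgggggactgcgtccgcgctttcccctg
Counted from 1 at the 5′ end, RNVU1-28 differs from the canonical copy RNU1-1 by 1 substitution, G37T. RNVU1-7 also differs from it by 1, T150C, and RNVU1-31 by 2, A49T and C116T. The marked stretch was in 3 of the 48 RNAs and in 2.33% of the 601 loci of these gene types that have a position in that annotation.

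The U4 pair shows how alike neighbouring copies are. RNU4-2 and RNU4-1 lie at chr12:120291763-120291903 and chr12:120293097-120293237 on the minus strand, and capitals mark ATTTTTG, the site where Sm proteins bind.
RNU4-2: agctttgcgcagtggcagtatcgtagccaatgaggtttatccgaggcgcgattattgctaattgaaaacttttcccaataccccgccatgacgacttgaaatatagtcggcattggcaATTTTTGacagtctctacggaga
RNU4-1: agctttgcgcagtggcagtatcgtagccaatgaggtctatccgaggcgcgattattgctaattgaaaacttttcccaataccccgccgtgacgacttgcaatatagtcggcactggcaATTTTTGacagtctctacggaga
The U4 copies differ at 4 of 141 bases. ATTTTTG was found in 4.33% of the 601 loci.

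U6atac is the catalytic snRNA of the minor spliceosome. RNU6ATAC lies at chr9:134164439-134164564 on the minus strand. Capitals mark AAGGAGA, the stretch that pairs with the 5′ splice site, which was found in 1.33% of the 601 loci.
RNU6ATAC: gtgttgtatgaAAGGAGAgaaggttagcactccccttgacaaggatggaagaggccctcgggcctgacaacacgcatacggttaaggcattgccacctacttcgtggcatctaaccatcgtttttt

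RNY1 and RNY4 lie together on chromosome 7, at chr7:148987136-148987248 (RNY1, minus strand) and chr7:148963315-148963410 (RNY4, plus strand), and capitals mark the run of T at which RNA polymerase III stops. SNORA73B, in an intron of RCC1 and of SNHG3 at chr1:28508559-28508762 on the plus strand, is an H/ACA box snoRNA. Capitals mark its ACA box, 3 bases before the end.
RNY1: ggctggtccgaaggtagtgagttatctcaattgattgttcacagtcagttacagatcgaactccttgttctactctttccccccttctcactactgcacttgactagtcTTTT
RNY4: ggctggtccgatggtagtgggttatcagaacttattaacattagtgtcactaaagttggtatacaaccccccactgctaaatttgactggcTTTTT
SNORA73B: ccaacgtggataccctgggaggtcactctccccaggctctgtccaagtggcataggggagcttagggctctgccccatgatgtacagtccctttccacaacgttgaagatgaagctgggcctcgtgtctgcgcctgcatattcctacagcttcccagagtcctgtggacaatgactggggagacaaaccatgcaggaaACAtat

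Together, the 48 RNAs took few of the reads, and more of them in HG-OE. Before TMM scaling they held 33.6, 33.6 and 44.1 CPM of the total in HG-NC replicates 1, 2 and 3. In HG-OE replicates 1 and 2 they held 75.8 and 73.1, and in replicate 3 they held 443. After scaling by TMM, the summed level of HG-OE replicates 1 and 2 was 2.01 times that of HG-NC, and HG-OE replicate 3 was 5.96 times as high as the mean of replicates 1 and 2. The share of 7SK in these counts was 20.6% to 22.8% in HG-NC, 29.4% and 27.6% in HG-OE replicates 1 and 2, and 42.9% in replicate 3. Without 7SK and RN7SL1, the sum was 20.2 to 26.6 CPM over the HG-NC libraries, 38.1 and 35.3 CPM over HG-OE replicates 1 and 2, and 184 CPM in replicate 3.

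**Figure D1:**
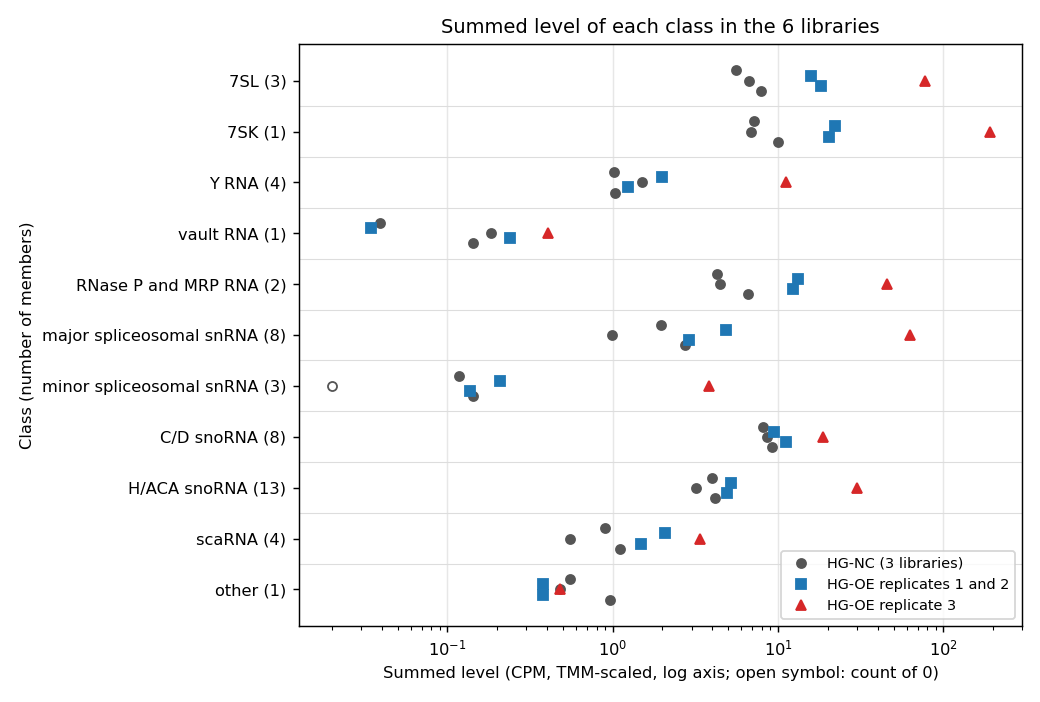
Summed level of each class of RNA in the 6 libraries, in TMM-scaled CPM on a log axis, with 1 symbol per library and the number of members beside each class. HG-OE replicate 3 (triangles) lies to the right of the other libraries in every class but the unnamed snoRNA (other), by 1.81-fold over replicates 1 and 2 for C/D snoRNAs and 22.4-fold for minor spliceosomal snRNAs.

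The classes differed in which step was large. From HG-NC to HG-OE replicates 1 and 2, the summed level was 2.65 times as high for 7SK, 2.55 for 7SL, 2.51 for the RNAs of RNase P and MRP, 2.07 for scaRNAs, 2.02 for the major and 1.98 for the minor snRNAs. It was 1.36 for Y RNAs, 1.33 for H/ACA snoRNAs and 1.12 for the vault RNA, and 0.569 for the unnamed snoRNA, the only class with a lower level. The C/D snoRNAs had a mean of 8.62 ± 0.528 CPM (SD, n = 3) in HG-NC, against 10.4 CPM as the mean of HG-OE replicates 1 and 2. From HG-OE replicates 1 and 2 to replicate 3, the order was another one. The minor and the major snRNAs came first, at 22.4 and 16.3 times, then 7SK at 8.98, Y RNAs at 6.91, H/ACA snoRNAs at 5.95, 7SL at 4.50 and the RNAs of RNase P and MRP at 3.57. C/D snoRNAs and scaRNAs were at 1.81 and 1.90, the vault RNA at 2.98 and the unnamed snoRNA at 1.26. All 3 minor and 4 of the 8 major snRNAs reached 30 counts only with replicate 3, so their place follows in part from how they were chosen: among RNAs with 30 counts over the other 5 libraries the major snRNAs were at 10.5, and with a minimum of 10 counts the minor snRNAs were at 11.3. These are ratios of sums, in which 1 RNA can carry the class: SNORA73B gave 637 of the 883 H/ACA counts in HG-OE replicate 3.

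7SK (ENSG00000202198.1, chr6:52995620-52995950) was the most counted of these RNAs. It had 181, 187 and 280 counts in HG-NC, 646 and 589 in HG-OE replicates 1 and 2, and 5595 in replicate 3. No HG-OE library overlapped HG-NC, and replicate 3 lay far above all. 7SK rose with hnRNP-F overexpression, by 3.28 ± 0.735 on the log2 scale (± standard error, edgeR adjusted p = 0.00200, 3 libraries per group). Without HG-OE replicate 3 it was 1.40 ± 0.104 (edgeR adjusted p = 1.27e-16). By limma on log2(FPKM + 1) the rise of 2.42 lost the call (limma adjusted p = 0.0520). With a pseudocount of 0.1 it kept the call (limma adjusted p = 0.0453), and the DESeq2 Wald test gave 7SK no adjusted p.

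RN7SL1, the main copy of 7SL in the table, had 137, 174 and 207 counts in HG-NC, 444 and 518 in HG-OE replicates 1 and 2, and 2030 in replicate 3. The groups did not overlap. It rose by a log2 fold change of 2.41 ± 0.466 (edgeR adjusted p = 0.000661), and by 1.36 ± 0.109 without HG-OE replicate 3 (edgeR adjusted p = 1.68e-15). RN7SL3, another copy of 7SL, had 0, 2 and 8 counts in HG-NC, 11 and 4 in HG-OE replicates 1 and 2, and 221 in replicate 3. RN7SL130P, a pseudogene in an intron of PGM1, had 5 to 6 counts in HG-NC and 8, 11 and 12 in HG-OE, so that its replicate 3 was close to the others. RN7SL2 was not analysed here.

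Among the RNAs of RNase P and MRP, RPPH1 was the steadier. RPPH1 (ENSG00000259001.3, chr14:20343048-20343685) had 71, 85 and 128 counts in HG-NC and 281, 294 and 579 in HG-OE. Its log2 fold change was 1.91 ± 0.258 (edgeR adjusted p = 3.29e-05) and 1.49 ± 0.140 without HG-OE replicate 3 (edgeR adjusted p = 3.87e-13). The row of RPPH1 overlaps an exon of PARP2 on the other strand, and whether the authors' counting used the strand is not given in the sources used here. RMRP had 38, 35 and 56 counts in HG-NC, 104 and 66 in HG-OE replicates 1 and 2, and 762 in replicate 3. It rose by a log2 fold change of 2.73 ± 0.713 (edgeR adjusted p = 0.00561). Without HG-OE replicate 3 it rose by 0.87 ± 0.228 (edgeR adjusted p = 0.00111), which is less than 2-fold.

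The Y RNAs split by locus. RNY1 had 1, 4 and 2 counts in HG-NC, 30 and 10 in HG-OE replicates 1 and 2, and 197 in replicate 3. RNY4 had 1 count in each HG-NC library, then 7 and 8, and 80 in replicate 3. In both, the HG-OE libraries lay above all HG-NC libraries, but the counts were too few for the test. RNY3 had 0 counts in 5 libraries and 30 in HG-OE replicate 3, which is at least 9.91-fold higher than in replicates 1 and 2, where a count of 0 allows 3 counts in each library. The unnamed copy on chromosome 16 (Y_RNA, ENSG00000207425.1) went another way, with 24, 36 and 26 counts in HG-NC and 21, 18 and 21 in HG-OE. Its log2 fold change was -0.64 ± 0.283 and did not pass the test (edgeR adjusted p = 0.0760). VTRNA2-1, listed as a vault RNA, had 1, 5 and 4 counts in HG-NC and 1, 7 and 12 in HG-OE, and its groups overlapped.

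**Figure D2:**
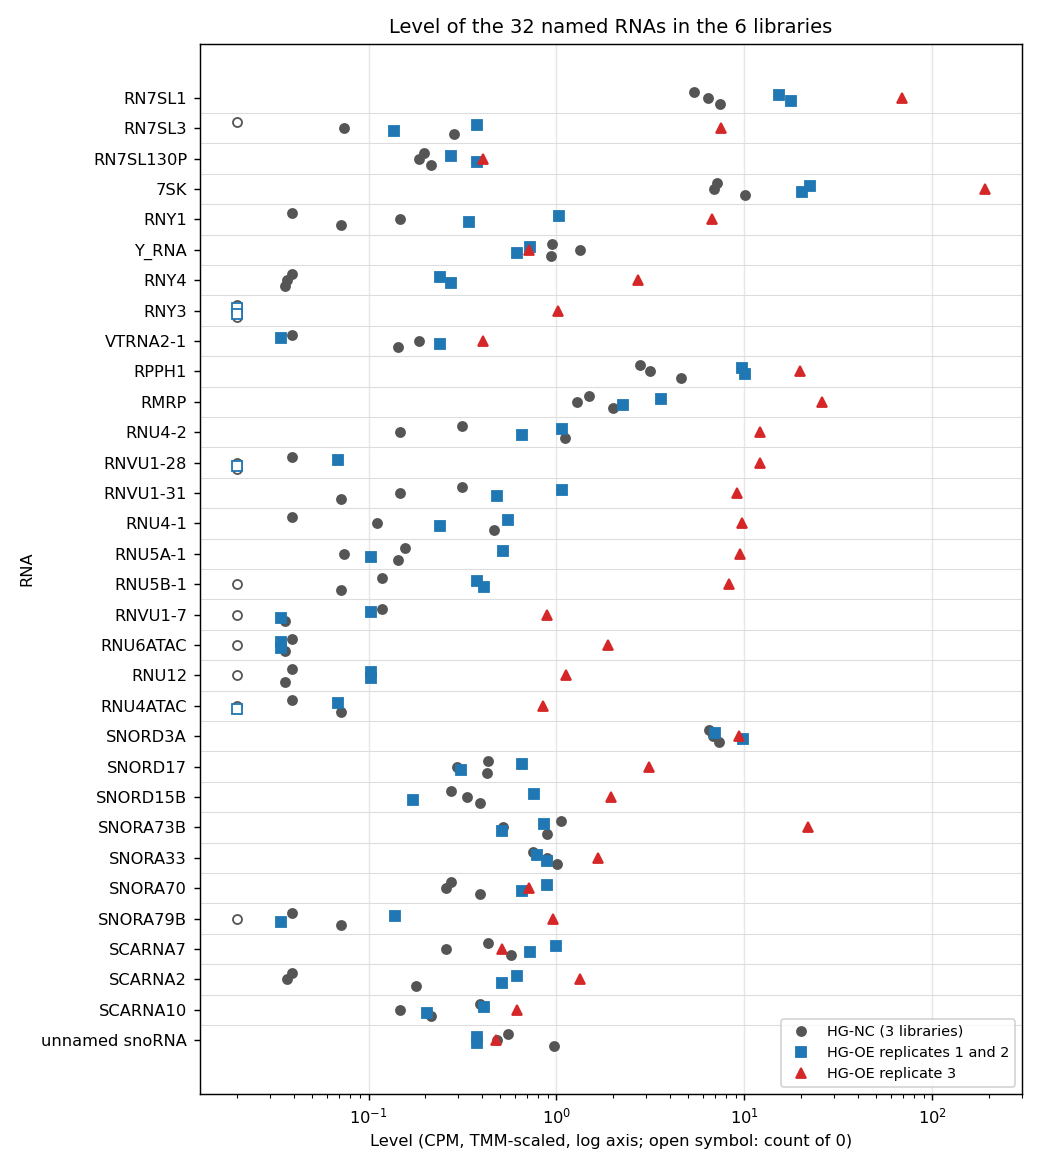
Level of 32 named RNAs in each of the 6 libraries, in TMM-scaled CPM on a log axis, ordered by class, with open symbols at the left for a count of 0. 7SK, RN7SL1 and RPPH1 form 3 steps from HG-NC through HG-OE replicates 1 and 2 to replicate 3, while RNVU1-28, RNU6ATAC and SNORA73B lie apart in replicate 3 alone.

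Each copy of U1, U4 and U5 had at most 31 counts in any library but HG-OE replicate 3. RNVU1-28 had 1, 0 and 0 counts in HG-NC, 2 and 0 in HG-OE replicates 1 and 2, and 356 in replicate 3. The ratio to replicates 1 and 2 was 353, with a 95% counting interval (exact Clopper-Pearson) of 96.9 to 2923. RNVU1-31 had 8, 4 and 2 counts in HG-NC, 31 and 14 in HG-OE replicates 1 and 2, and 268 in replicate 3. It rose by a log2 fold change of 4.32 ± 0.998 (edgeR adjusted p = 0.00245), and by 2.12 ± 0.518 without HG-OE replicate 3 (edgeR adjusted p = 0.000486). RNVU1-31 had enough counts for the test only through HG-OE, so these values are a description. RNVU1-7, which is also 1 base away from RNU1-1, had 3, 0 and 1 counts, then 3 and 1, and 26 in replicate 3. So RNVU1-28 and RNVU1-31 were at like levels in HG-OE replicate 3 (12.1 and 9.13 CPM), while in replicates 1 and 2 RNVU1-31 was counted 45 times and RNVU1-28 only 2 times.

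RNU4-2 had 8, 4 and 31 counts in HG-NC, 31 and 19 in HG-OE replicates 1 and 2, and 354 in replicate 3. RNU4-1, its neighbour on chromosome 12, had 1, 3 and 13 counts, then 16 and 7, and 285 in replicate 3. In both U4 copies HG-NC replicate 3 was the highest control and overlapped HG-OE. Both passed the test over all 6 libraries, with log2 fold changes of 3.11 ± 0.938 (edgeR adjusted p = 0.0130) for RNU4-2 and 4.03 ± 1.17 (edgeR adjusted p = 0.0102) for RNU4-1. Neither passed without HG-OE replicate 3, at 0.69 ± 0.442 (edgeR adjusted p = 0.190) and 0.90 ± 0.604 (edgeR adjusted p = 0.213). Both U4 copies had enough counts for the test only with HG-OE, so these values are a description.

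RNU5B-1 had 3, 0 and 2 counts in HG-NC, 11 and 12 in HG-OE replicates 1 and 2, and 242 in replicate 3. Its log2 fold change was 5.50 ± 1.32 (edgeR adjusted p = 0.00311), the largest of these RNAs that were tested, and 2.58 ± 0.721 without HG-OE replicate 3 (edgeR adjusted p = 0.00207). RNU5B-1 reached 30 counts only with HG-OE replicate 3, and had enough counts for the test only through HG-OE. Its values are therefore a description. RNU5A-1 had 4, 2 and 4 counts, then 15 and 3, and 278 in replicate 3, a ratio of 30.6 (19.0 to 52.4) to replicates 1 and 2. The U6 copy RNU6-8 did not follow: it had 22, 14 and 24 counts in HG-NC and 31, 28 and 33 in HG-OE, with a log2 fold change of 0.49 ± 0.289 (edgeR adjusted p = 0.172).

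The snRNAs of the minor spliceosome, which removes a small class of introns, were at the edge of detection outside HG-OE replicate 3. RNU6ATAC had 1, 0 and 1 counts in HG-NC, 1 and 1 in HG-OE replicates 1 and 2, and 55 in replicate 3. RNU12 had 1, 0 and 1 counts, then 3 and 3, and 33 in replicate 3. RNU4ATAC had 1, 0 and 2 counts, then 2 and 0, and 25 in replicate 3. The ratios of replicate 3 to replicates 1 and 2 were 54.5 (14.4 to 461), 10.9 (4.51 to 31.8) and 24.8 (6.18 to 216). None of the 3 had enough counts for the test, and all reached 30 counts only with HG-OE replicate 3. No U7 snRNA reached 30 counts.

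C/D snoRNAs were led by SNORD3A, the U3 snoRNA that acts in the cleavage of the ribosomal RNA precursor. SNORD3A had 165, 185 and 206 counts in HG-NC and 203, 286 and 276 in HG-OE. It was higher in HG-OE by a log2 fold change of only 0.34 ± 0.133 (edgeR adjusted p = 0.0445), and HG-OE replicate 3 lay between replicates 1 and 2. The groups overlapped, with HG-OE replicate 1 at 6.99 CPM and HG-NC replicate 3 at 7.36 CPM. SNORD3A passed neither without HG-OE replicate 3 (edgeR adjusted p = 0.0512) nor with the DESeq2 Wald test (DESeq2 adjusted p = 0.116). SNORD17, from an intron of SNX5, had 11, 8 and 12 counts in HG-NC, 19 and 9 in HG-OE replicates 1 and 2, and 91 in replicate 3. SNORD17 passed the test with replicate 3 (log2 fold change 1.81 ± 0.664, edgeR adjusted p = 0.0351) and not without it (0.32 ± 0.472, edgeR adjusted p = 0.596). Over all libraries it had enough counts for the test only with HG-OE, so its call is a description. SNORD15B, from RPS3, had 7, 9 and 11 counts, then 22 and 5, and 57 in replicate 3, and did not pass (edgeR adjusted p = 0.0574). SNORD13, which has its own gene on chromosome 8, had 1, 0 and 1 counts, then 3 and 0, and 38 in replicate 3.

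H/ACA snoRNAs were uneven. SNORA73B had 27, 14 and 25 counts in HG-NC, 25 and 15 in HG-OE replicates 1 and 2, and 637 in replicate 3. HG-OE replicates 1 and 2 lay within the range of HG-NC, and the log2 fold change of 3.22 ± 1.05 (edgeR adjusted p = 0.0192) became -0.25 ± 0.378 without replicate 3 (edgeR adjusted p = 0.598). SNORA70 (ENSG00000251893.2, chr12:75689152-75689304, in an intron of a lncRNA) was the reverse case, with 7, 7 and 11 counts in HG-NC and 26, 19 and 21 in HG-OE. It rose by a log2 fold change of 1.27 ± 0.355 (edgeR adjusted p = 0.00843) and by 1.31 ± 0.436 without replicate 3 (edgeR adjusted p = 0.00966). SNORA70 had enough counts for the test only with HG-OE, so these values are a description. With the DESeq2 Wald test it lost the call (adjusted p = 0.0832), and by limma on log2(FPKM + 1) the change was 0.94, under 2-fold. SNORA33, from RPS12, had 19, 24 and 28 counts in HG-NC and 23, 26 and 49 in HG-OE and did not pass the test. Of the other 10, SNORA23 had 1, 0 and 0 counts in HG-NC, 6 and 4 in HG-OE replicates 1 and 2, and 54 in replicate 3. SNORA79B had 1, 0 and 2, then 4 and 1, and 28.

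Of the 4 scaRNAs, SCARNA2 rose. SCARNA2, which has its own gene on chromosome 1, had 1, 1 and 5 counts in HG-NC and 18, 15 and 39 in HG-OE. It rose by a log2 fold change of 3.18 ± 0.605 (edgeR adjusted p = 0.000582), and by 2.65 ± 0.617 without HG-OE replicate 3 (edgeR adjusted p = 0.000271). SCARNA2 had enough counts for the test only through HG-OE, so these values are a description. Its row also overlaps an exon of ENSG00000270066 on the same strand. SCARNA7, from an intron of KPNA4, had 11, 7 and 16 counts in HG-NC and 29, 21 and 15 in HG-OE, and replicate 3 was its lowest HG-OE library. SCARNA7 did not pass over all libraries (log2 fold change 0.81 ± 0.387, edgeR adjusted p = 0.0959). SCARNA10 had 10, 4 and 6 counts in HG-NC and 12, 6 and 18 in HG-OE, with a log2 fold change of 0.71 ± 0.519 (edgeR adjusted p = 0.272). SCARNA5 had 1, 3 and 4 counts, then 1 and 1, and 27 in replicate 3. An unnamed snoRNA on chromosome 1 (ENSG00000206878.1) had 14, 13 and 27 counts in HG-NC and 11, 11 and 14 in HG-OE, with a log2 fold change of -0.69 ± 0.374 (edgeR adjusted p = 0.139).

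Over the whole set, HG-OE against HG-NC gave rises and no falls. Of the 21 RNAs with enough counts for the test, 12 were called higher (adjusted p under 0.05, 2-fold or more) and 0 lower, against 3.69% and 2.13% of the 17142 genes tested. Without the fold threshold, 13 were higher and 0 lower, against 25.9% and 25.9% of all genes. The median log2 fold change of the 21 was 1.81, against 0.01 over all genes tested. Without HG-OE replicate 3, 22 RNAs could be tested and 9 were called higher, and 0 lower, against 3.6% and 2.63% of genes, with a median of 0.78. Of the 12 called over all libraries, 7 were also called without replicate 3: 7SK, RN7SL1, RPPH1, RNVU1-31, RNU5B-1, SNORA70 and SCARNA2. RNU5B-1 is in the set only through replicate 3. Among the RNAs chosen without that library, 11 of 20 tested were called higher, with a median log2 fold change of 1.66, and 6 were also called without it. RMRP, RNU4-2, RNU4-1, SNORD17 and SNORA73B lost the call, and SNORA12 and SCARNA7 gained it. The tests cover the better counted RNAs only, since 27 of the 48 fell under the low-count filter. RNVU1-31, RNU5B-1 and SCARNA2, with under 10 counts in every HG-NC library, passed that filter only through HG-OE. So did SNORA12 and SNORA70 in the fit without replicate 3. Over all libraries, SNORA70, RNU4-2, RNU4-1 and SNORD17 also needed HG-OE to pass it. Their counts in HG-NC were 7, 7 and 11, then 8, 4 and 31, 1, 3 and 13, and 11, 8 and 12. The calls of all these RNAs are therefore descriptions. With at least 10 counts in every library, 10 RNAs could be tested and 5 were called higher.

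Counting libraries rather than testing, all 3 HG-OE libraries lay above all HG-NC libraries for 17 of the 48 RNAs and below them for 2, against 27.8% and 27.1% of the genes with at least 30 counts. HG-OE replicates 1 and 2 alone lay above all HG-NC libraries for 18, against 32.3% of genes. The share above, 17 of 48, was near its background, and few RNAs lay below.

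**Figure D3:**
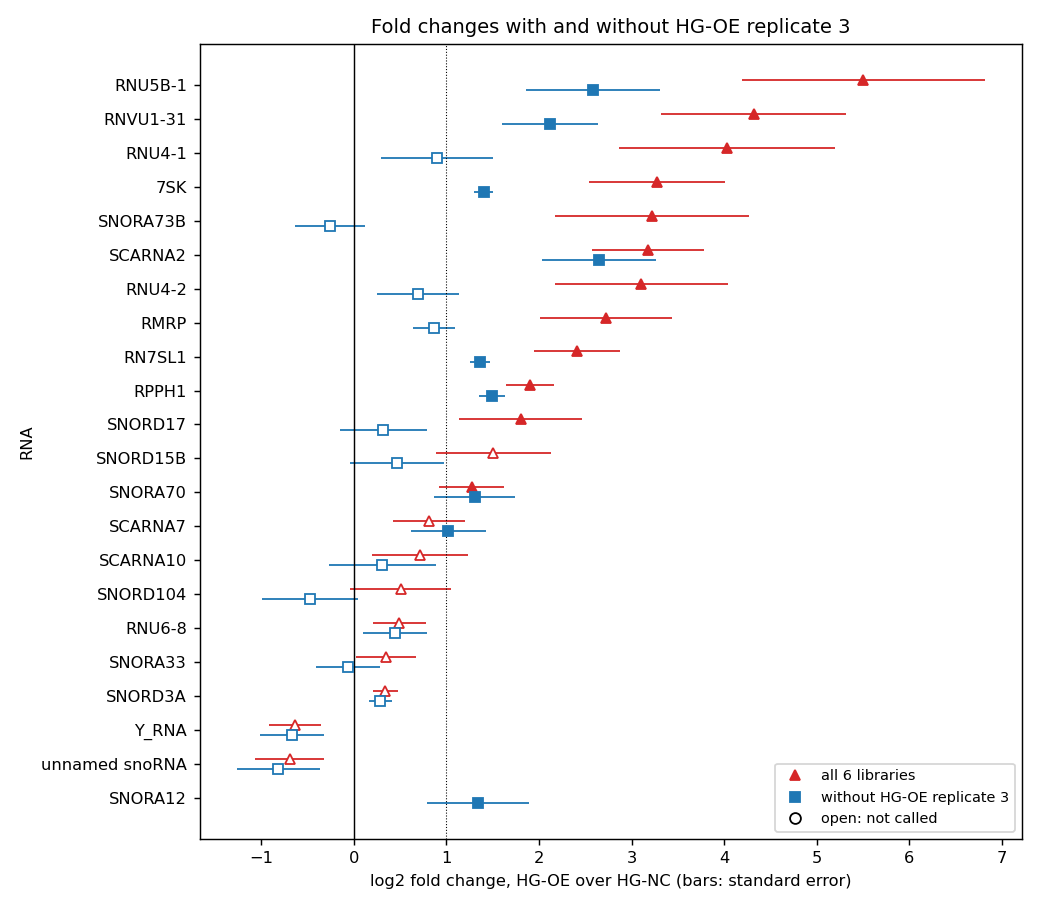
Log2 fold change of HG-OE over HG-NC from edgeR for the 22 RNAs that could be tested, with all 6 libraries (triangles) and without HG-OE replicate 3 (squares). Bars are standard errors, filled symbols passed both thresholds, and the dotted line marks a 2-fold change. For SNORA73B the value moved from 3.22 to -0.25, and for SNORA70 from 1.27 to 1.31.

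HG-OE replicate 3 was the highest of the 6 libraries for 38 of the 48 RNAs, against 21.1% of the genes with at least 30 counts. It was at least 2-fold above the mean of replicates 1 and 2 for 30 RNAs (4.48% of genes) and at least 5-fold for 22 (2.21% of genes). Among the 28 RNAs that reach 30 counts without this library, the numbers were 20 highest (19.5% of genes chosen that way), 12 at 2-fold (2.4%) and 8 at 5-fold (0.652%), with a median ratio of 1.98. Of the other 20, 14 were at 5-fold or more, which follows in part from how they were chosen. The lowest ratio was that of SCARNA7, 0.594 (0.310 to 1.08). Per length, in the authors' FPKM, the order in HG-OE replicate 3 began with 7SK at 511, RN7SL1 at 205, SNORA73B at 94.3, RMRP at 85.9 and RNU4-2 at 75.8. In HG-NC, 7SK (18.6 to 27.2 FPKM) and RN7SL1 (16.1 to 22.3 FPKM) also came first and overlapped, and were followed by Y_RNA on chromosome 16 (8.36 to 11.9 FPKM) and SNORD3A (8.28 to 9.47 FPKM), whose ranges overlapped as well.

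**Figure D4:**
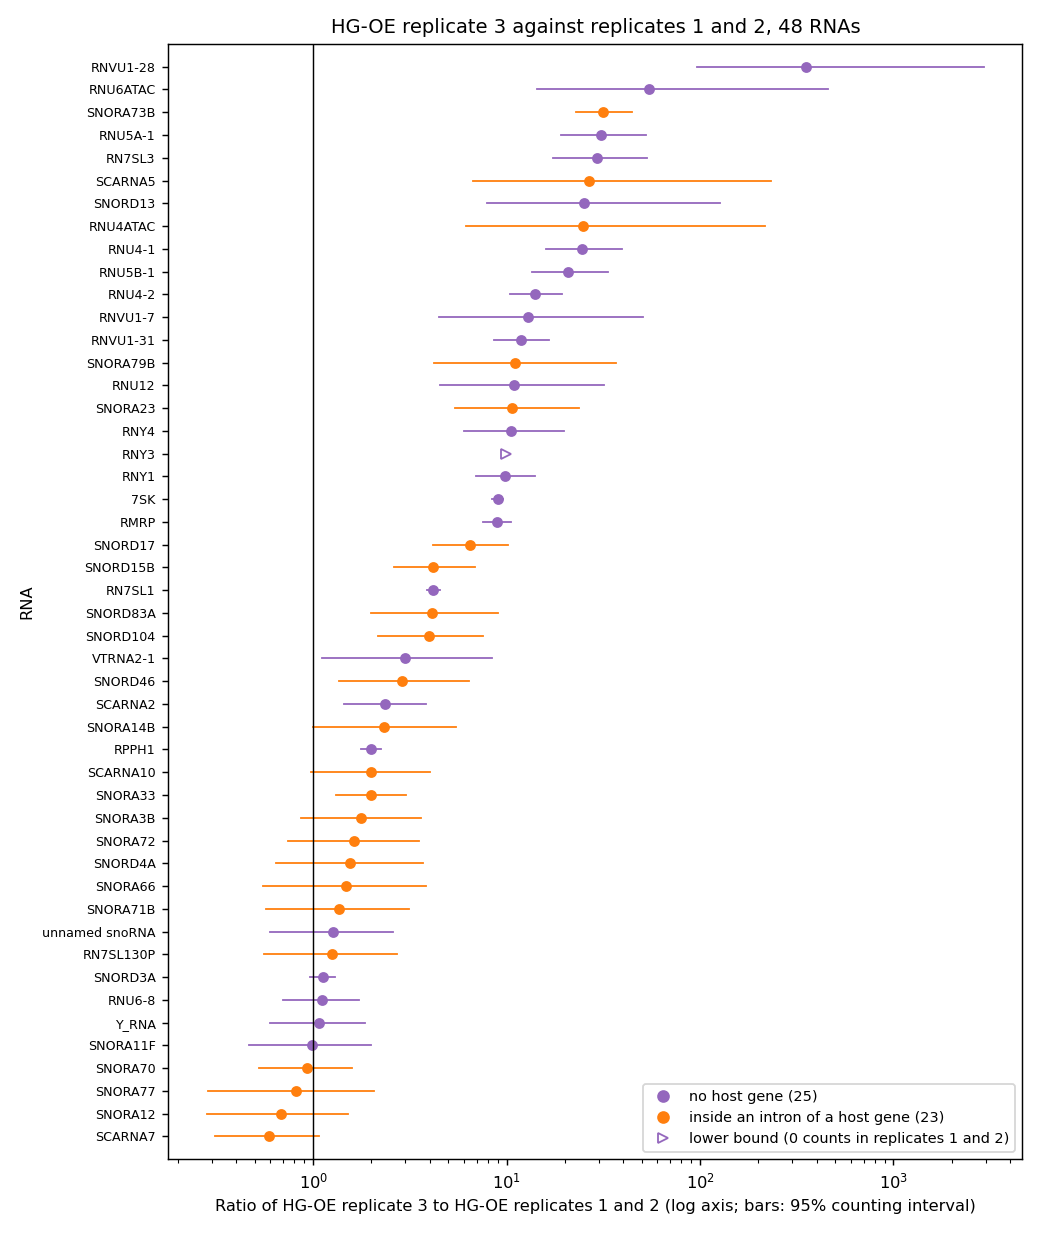
Ratio of HG-OE replicate 3 to the pooled HG-OE replicates 1 and 2 for each of the 48 RNAs on a log axis, with 95% counting intervals, coloured by whether the RNA lies inside an intron of a host gene on the same strand. The ratio ran from 0.594 (SCARNA7) to 353 (RNVU1-28), and RNY3 is drawn, without an interval, at the bound of 9.91 that 3 counts in each of replicates 1 and 2 would give.

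Over the whole set, RNAs without a host gene had the larger ratios, but not among the snoRNAs and scaRNAs. Of the 48 RNAs, 25 lay in no intron of another gene on their strand, and 23 lay in one. The RNAs without a host had a median ratio of 9.91 (0.991 to 353), with 16 of 25 at 5-fold or more. The RNAs inside a host had a median ratio of 1.98 (0.594 to 31.6), with 6 of 23 at 5-fold or more: SNORA73B, SCARNA5, RNU4ATAC, SNORA79B, SNORA23 and SNORD17. Of those without a host, RPPH1, SNORD3A, RNU6-8, Y_RNA on chromosome 16, SNORA11F and the unnamed snoRNA stayed under 2-fold. Class and location overlap, since 20 of the 25 without a host belong to the other classes. Within snoRNAs and scaRNAs, the 5 without a host had a median ratio of 1.26 and the 21 inside a host 1.98, so class and location cannot be told apart here. Of the 25 without a host 11, and of the 23 inside a host 9, reached 30 counts only with HG-OE replicate 3, which raises their ratios. Among the 28 chosen without that library, the median ratio was 3.26 for the 14 without a host, with 6 at 5-fold or more, and 1.70 for the 14 inside a host, with 2 at 5-fold or more (SNORA73B and SNORD17).

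Most host genes stayed near their level in the other HG-OE libraries where their small RNA did not. Across the 23 hosts, the ratio of replicate 3 to replicates 1 and 2 had a median of 1.04 (0.882 to 1.79), and 20 were within 1.2-fold. Where an RNA lay in more than 1 host, the host with the most counts was used. RCC1, so used for SNORA73B, is a guanine exchange factor of the nuclear transport GTPase Ran. It was at 90.5, 86.7 and 89.4 CPM in the controls and at 79.5, 75.8 and 80.6 CPM under overexpression, while SNORA73B was 31.6 times as high in replicate 3 as in replicates 1 and 2. SNORA73B also lies in an intron of SNHG3 on the same strand, and the level of SNHG3 is not given here. IPO7, the host of SNORA23 and a nuclear import receptor, had a ratio of 1.05 against 10.7 for SNORA23. SNX5, a host of SNORD17 beside OVOL2, fell in HG-OE by a log2 fold change of -0.49 ± 0.0373 (edgeR adjusted p = 1.90e-07). KPNA4, the host of SCARNA7 and an importin, fell by -0.47 ± 0.0407 (edgeR adjusted p = 6.17e-07), while SCARNA7 was higher in HG-OE replicates 1 and 2 than in any HG-NC library. The lncRNA that holds SNORA70 was at 0.550, 0.480 and 0.715 CPM in HG-NC and 0.723, 0.926 and 1.43 CPM in HG-OE. Its log2 fold change of 0.81 ± 0.333 did not pass the test (edgeR adjusted p = 0.0555). Reads of a snoRNA and of the intron that holds it cannot be told apart in a count per gene.

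**Figure D5:**
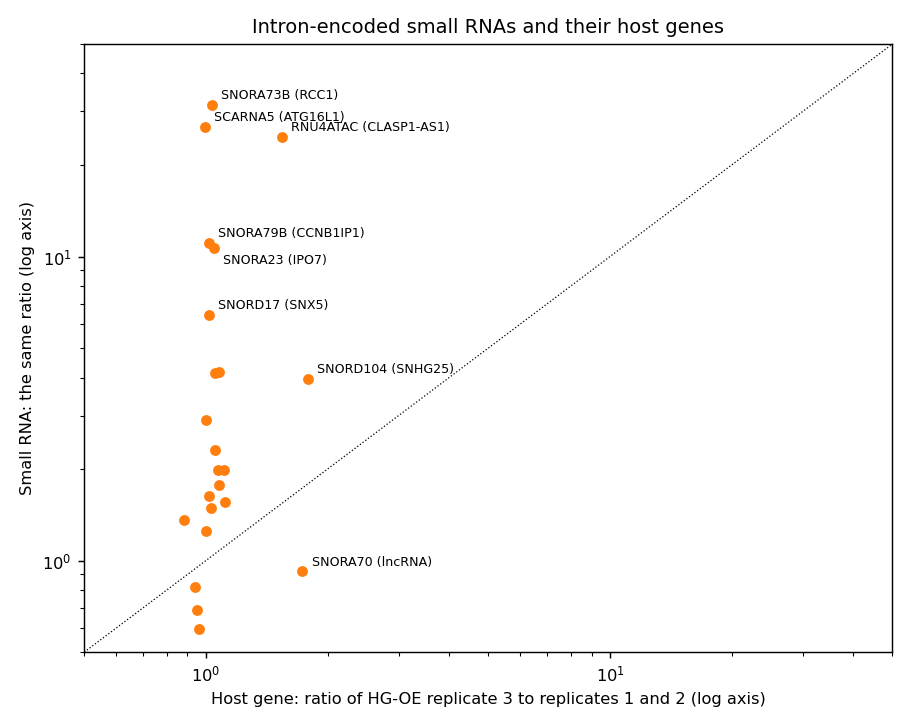
Ratio of HG-OE replicate 3 to replicates 1 and 2 for each of 23 small RNAs inside an intron of a host gene (vertical, log axis). It is set against the same ratio of the host gene (horizontal, log axis), with equality as the dotted line. The 23 were placed by position only, and include the snRNA RNU4ATAC and the 7SL pseudogene RN7SL130P. The hosts lie between 0.882 and 1.79, while the small RNAs reach 31.6.

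The authors counted uniquely mapped reads, and many of these RNAs have near-identical copies. For each RNA, the share of its windows of 32 bases that occur once in GRCh38 was counted on both strands. The study sequenced paired reads longer than these windows, so a read can map to 1 place where none of its windows does. It was 100% for 21 of the 48 RNAs and under 50% for 15. RPPH1 and RMRP were at 100%, 7SK at 12.3%, RNVU1-28 at 24.1%, RNVU1-31 at 43.6%, RNVU1-7 at 11.3%, and RN7SL1, RNU6-8, RNY3 and Y_RNA on chromosome 16 at 0%. The canonical copies RNU1-1 to RNU1-4, RNU2-1 and RNU6-1 were at 0% too, and none of them reached 30 counts: RNU1-1 had 4 counts in HG-OE replicate 3 and RNU1-4 had 8. RNU2-1 had 2 counts in HG-OE replicate 3 and 0 elsewhere. SNORD3A, RNU6-8 and Y_RNA on chromosome 16, which kept within 1.12-fold in HG-OE replicate 3, were all at 0.299% or 0%, but so were RN7SL1 and RNY3, which did not. RN7SL1 and SNORD3A were also among the best counted members, and the part of unique mapping in the levels was not tested.

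TATA within 35 to 15 bases before the start stood in 5 of the 11 members known as RNA polymerase III products, in 0 of the other 14 without a host and in 0 of the 23 inside a host. All loci of these gene types had it in 10.5% and protein-coding genes in 6.24%. TTTT within 20 bases of the end stood in 8 of the 11, in 6 of 14 and in 5 of 23, against 25.1% of all loci of these gene types and 27.1% of protein-coding genes. Both were searched on the strand of the gene. The longest run of A in a member was 18 bases, in RPPH1, and no other member had a run longer than 5. The median over members was 3, against 4 over all loci of these types.

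Below 30 counts lay 554 further loci of the same gene types. In sum they had 240 to 285 counts in HG-NC, 291 and 322 in HG-OE replicates 1 and 2, and 724 in replicate 3, and 145 to 163, then 163 and 190, and 305 of them had a count. Just outside the threshold, SNORA65 had 28 counts in total and RNU5A-8P, SNORD100 and a Y_RNA copy 26 or 27. Just inside, RNU4ATAC, RNY3 and VTRNA2-1 had 30 counts. RNU5A-8P had 19 of its 27 counts in HG-OE replicate 3 and SNORA65 7 of 28, so loci on both sides of the threshold had both patterns.

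The mRNAs of the proteins that bind or make these RNAs moved little. Over 11 lists with 163 genes tested, 10 of proteins and 1 of other RNAs without a standard tail, 104 passed an adjusted p under 0.05, against 25.9% higher and 25.9% lower among all genes tested, and 0 were also 2-fold changed, against 3.69% and 2.13%. In the RNase P and MRP proteins, 3 of 11 rose and 3 fell, among them RPP25L (log2 fold change 0.65 ± 0.108) and RPP40 (-0.32 ± 0.0617). In the signal recognition particle and its receptor, 6 of 8 fell, SRP72 by -0.36 ± 0.0379, and SRP14 rose by 0.13 ± 0.0464, a call lost without HG-OE replicate 3 (edgeR adjusted p = 0.0658). In the 7SK particle and P-TEFb, 3 of 7 fell (CCNT2 by -0.71 ± 0.0644, LARP7 by -0.36 ± 0.061) and MEPCE, which caps 7SK, rose by 0.22 ± 0.0458. Of the Y RNA and vault proteins, RO60 fell by -0.18 ± 0.0483 and MVP rose by 0.31 ± 0.0494.

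Of the spliceosomal snRNP proteins, 4 of 28 rose, SNRPD3 by 0.60 ± 0.0513, and 11 fell, SNRPB by -0.45 ± 0.0389. In the minor spliceosome and U7 list, 6 of 13 rose, LSM11 by 0.56 ± 0.102, and ZNF473 fell by -0.27 ± 0.0548. In the snoRNP proteins, 13 of 19 fell, the C/D core protein NOP58 by -0.68 ± 0.0495, and 3 rose, the H/ACA core protein NHP2 by 0.46 ± 0.0447. For RNA polymerase III and its factors, 14 of 30 fell, SNAPC1 by -0.67 ± 0.0448, and 6 rose, BRF1 by 0.25 ± 0.0772. For Integrator, which cuts the 3′ ends of snRNAs, 4 of 14 rose and 3 fell (INTS5 0.64 ± 0.0776, INTS12 -0.86 ± 0.0671). For the nuclear exosome and 3′ end trimming, 13 of 23 fell, ZCCHC8 by -0.65 ± 0.0554, and 3 rose, PARN by 0.30 ± 0.063. Between HG-OE replicate 3 and replicates 1 and 2, the median ratio within the lists of proteins stayed between 0.959 and 1.07.

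The summed levels of liver and of squamous epithelium genes were also highest in HG-OE replicate 3, though not every liver gene was. Of the markers of proximal tubule, PAX8 stood at 602 to 654 CPM in the controls, 462 and 472 CPM in HG-OE replicates 1 and 2, and 407 CPM in replicate 3, while AQP1 stood at 0 to 0.250 CPM and LRP2 stood at 0 in 5 libraries and 0.579 CPM in HG-OE replicate 3. The 13 markers of proximal tubule in the table summed to 1151 to 1216 CPM over the HG-NC libraries, 1453 and 1492 over HG-OE replicates 1 and 2, and 1950 in replicate 3, where the keratins KRT8 and KRT18 gave 980 and 486 CPM of it. Of 18 liver genes, all are in the table, and their sum was 266 to 278 CPM over the HG-NC libraries, 461 and 464 over HG-OE replicates 1 and 2, and 824 in replicate 3. Most of it is SERPINA1, and without SERPINA1 (left out after its values were seen) the sum was 3.06, 2.25 and 15.1 CPM over the HG-NC libraries, 5.23 and 5.63 over HG-OE replicates 1 and 2, and 431 in replicate 3. ALB stood at 148 CPM in that library and at 0 to 2.79 CPM in the others. SERPINA1 went the other way within HG-OE, at 456 and 458 CPM in replicates 1 and 2 and 394 CPM in replicate 3. HP, TAT and CYP2E1 were highest in HG-NC replicate 3, and ITIH1 was at 0 in HG-OE replicate 3. Of 14 genes for squamous epithelium, 12 were in the table, at 6.61 to 9.16 CPM in 5 libraries and 85.3 CPM in HG-OE replicate 3. The 6 leukocyte genes summed to 7.26 to 8.90 CPM in 5 libraries and 17.8 CPM in HG-OE replicate 3, with PTPRC and CD3E near 0. CD14 alone gave 14.6 CPM of the latter sum, and CSF1R was lowest in that library at 1.74 CPM. The 7 fibroblast genes summed to 31.9 to 38.9 CPM in 5 libraries and 41.7 CPM in HG-OE replicate 3. In HG-NC, replicate 3 had the highest liver sum without SERPINA1, and it was also the highest control for 20 of the 48 RNAs, against 31.2% of genes. The part of other cells in the levels of the small RNAs was not tested, and in bulk RNA fewer cells of a type and less RNA per cell cannot be told apart.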

How the data were processed

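The deposited table held whole-number counts per gene, made by the authors from uniquely mapped reads aligned to GRCh38 with HISAT2, and FPKM values that the authors derived from them. Libraries were directional and made by poly(A) capture and size selection per the study's methods, while the labels also name a total RNA kit. Whether a batch correction named in the methods entered the counts is not given in the sources used here. Counts were scaled by TMM and fitted over the whole table with the quasi-likelihood test of edgeR 4.0.16 in R 4.3.3 after its low-count filter, with Benjamini-Hochberg adjustment. Calls needed a 2-fold change and an adjusted p under 0.05. Errors of log2 fold changes are standard errors. Alternatives used DESeq2 1.42.0 and limma 3.58.1 on log2 of FPKM plus a pseudocount. HG-OE replicate 3 was compared with replicates 1 and 2 as a ratio with an exact interval, counting error only. Members, gene lists and tests were chosen with earlier results of these data known. The named RNAs were RMRP, RPPH1, RN7SL1, 7SK, RNU6ATAC and RNVU1-28, the 3 best counted in each class, the 5 called with the largest rise, the 5 with the largest ratio of HG-OE replicate 3, the 5 nearest each side of the threshold, and host genes. From each gene list the 2 largest rises and falls could be named. RNAs outside these rules, named to complete a count, were picked with their values known. The fit was tested on simulated counts with the same spread for every gene and no library apart. That test therefore does not cover a library like HG-OE replicate 3.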

Additional observations from a re-analysis of the deposited data

How the results depend on the processing

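The count of 12 RNAs called higher was 12 with DESeq2 size factors, 13 without the fold threshold, 14 with the DESeq2 Wald test, of which 6 were shared, and 12 with limma on log2(FPKM + 0.1), of which 7 were shared. It was 25 with no low-count filter, 5 with at least 10 counts in every library, 5 with limma on log2(FPKM + 1) and 2 with that and no filter. Leaving out 1 library at a time gave 9 to 16. With the replicate number as a block it was 13, of which 12 were shared, but the deviations of same-numbered libraries had correlations of -0.0273, 0.0301 and -0.000993, so the numbers do not pair the libraries. The log2 fold change of SNORA73B reversed to -0.25 without HG-OE replicate 3 and was at most 3.78 without any other library. By limma on log2(FPKM + 1), 7SK, RNVU1-31 and RNU5B-1 lost the call (limma adjusted p = 0.0520, 0.0660 and 0.0703). RN7SL1 and RPPH1 kept it (limma adjusted p = 0.0228 and 0.00358). The DESeq2 Wald test gave no adjusted p for 7SK, RNU4-2, RNU4-1, RNU5B-1 and SNORA73B. Without HG-OE replicate 3, the ratio of HG-OE to HG-NC was 2.55 for 7SL, 2.65 for 7SK, 1.36 for Y RNAs, 2.51 for the RNAs of RNase P and MRP, 2.02 for major and 1.98 for minor snRNAs, 1.33 for H/ACA snoRNAs and 2.01 for all 48. Leaving out any 1 of the 6 libraries, that ratio ran to 7.09, 13.3, 5.53, 5.78, 17.7, 23.7, 4.66 and 7.01 in the same order. Without pseudogenes and rows under a family name, Y RNAs had a ratio of 33.3 for HG-OE over HG-NC and 11.1 for HG-OE replicate 3 over replicates 1 and 2, and the latter was 4.86 for all RNAs. That setting also leaves out the row of 7SK, the most counted of the 48. With at least 10 counts in total, the ratio of replicate 3 to replicates 1 and 2 was 11.3 for minor snRNAs, 5.45 for H/ACA snoRNAs, 1.09 for unnamed snoRNAs and 5.77 for all. With at least 100 it was 1.54 for C/D snoRNAs, 15.3 for H/ACA snoRNAs and 6.28 for all. With 30 counts over the other 5 libraries it was 10.5 for major snRNAs, 6.36 for H/ACA snoRNAs, 1.41 for scaRNAs and 5.47 for all. It was 1.27 for the unnamed snoRNA with DESeq2 size factors, and 1.70 to 11.9 for the vault RNA when HG-OE replicate 1 or 2 was left out. Single RNAs had 251 recomputed log2 fold changes, not counting those with no adjusted p. Of these, 206 kept direction and side of the threshold, 39 lost the call with the same direction and 4 gained it. SNORA73B reversed as above, and SNORA33, which passed the test in neither case, went from 0.35 to -0.06 without HG-OE replicate 3. Where these values moved with the setting, the cause was not tested beyond the RNAs or libraries each setting leaves out. Counts of a few reads limit most of these RNAs, since only 21 of 48 could be tested.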

Other observations

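RNAs of the same kind that the table types otherwise were read in the same libraries. RNY5, the remaining human Y RNA, is typed as lncRNA and had 0 counts in each HG-NC library, 6 and 6 in HG-OE replicates 1 and 2, and 115 in replicate 3. RNU11, an snRNA of the minor spliceosome also typed as lncRNA, had 5, 4 and 1 counts in HG-NC, 0 and 3 in HG-OE replicates 1 and 2, and 30 in replicate 3. RNA5-8SN3, a copy of 5.8S ribosomal RNA, had 0, 0 and 3 counts, then 31 and 8, and 301 in replicate 3. The 3 were thus highest in HG-OE replicate 3, as were 38 of the 48 RNAs above.

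TERC, the telomerase RNA, had 21, 37 and 26 counts in HG-NC and 22, 32 and 52 in HG-OE and did not pass the test (edgeR adjusted p = 0.613). BCYRN1, which carries an A-rich stretch of its own, had 36, 33 and 9 counts in HG-NC and 27, 20 and 55 in HG-OE (edgeR adjusted p = 0.675). In both, the groups overlapped. Mitochondrial tRNAs summed to 2232 to 2539 counts in HG-NC, 2658 and 2538 in HG-OE replicates 1 and 2, and 2880 in replicate 3, a far smaller step than that of 7SK or the snRNAs. VTRNA1-1, a vault RNA under the threshold, had 11 counts in HG-OE replicate 3 and 0 in the other 5 libraries.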
